A study of Mus musculus with 4 samples.

Results

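AXT is a mouse osteosarcoma line, known to have been made by overexpressing c-MYC in marrow stromal cells. Mock AXT cells of WT genotype and HIF-1alpha KO AXT cells were embedded in matrigel and injected into C57BL/6scid mice, which lack mature T and B lymphocytes, and the tumours were taken 1 day later. Poly(A) RNA was sequenced in 1 mock library and in 3 libraries labelled HIF-1alpha KO, whose columns are named c11, c15 and c22. The labels name the knockout lines AXT1-1, AXT1-2 and AXT2, and which column is which line is not given in the sources used here, nor is it given whether each line is 1 clone. The comparison described is c22 against c11 and c15, with mock for reference only. Of 55487 genes in the table, 11278 had a mean of at least 5 CPM (the count scaled to a common library total) over the 3 knockout libraries and were kept. A gene was called where c22 lay at least 4-fold from c11 and from c15 in the same direction, on log2(CPM + 0.5). This chose 101 genes (0.896% of those kept), 27 higher in c22 (0.239%) and 74 lower (0.656%). Total counts were 12383719 to 13193264 per library. In folds, a floor of 3 counts (0.227 to 0.242 CPM) stood in for a count of 0, for counting error only.

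HIF-1alpha is the oxygen-regulated subunit of the transcription factor HIF-1, which pairs with ARNT and turns on genes of glycolysis, of pH control and of oxygen supply when oxygen is short. Each knockout line was sequenced once, so the line cannot be told apart from its tumour, its host animal and its library, and no p-value was computed. Intervals given below are 95% and cover counting error only. In such bulk samples, fewer cells of a type and less RNA per cell cannot be told apart.

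The targeted gene, Hif1a (chr12:73901375-73947530, GRCm38, plus strand), had 1325, 1341, 1302 and 292 counts in mock, c11, c15 and c22. These counts are 107, 104, 98.7 and 22.3 CPM. Only c22 stood apart, with Hif1a 4.65-fold lower than in c11 (interval 4.10 to 5.30) and 4.42-fold lower than in c15 (interval 3.89 to 5.04). The antisense gene Gm15283 (chr12:73843039-73949814, minus strand) spans Hif1a and was at 14.9, 15.2, 14.2 and 2.60 CPM in mock, c11, c15 and c22. Whether counting used strand is not given in the sources used here, so reads of this pair cannot be told apart. The neighbouring genes did not share this gap: Snapc1 had 142, 188, 189 and 164 counts, and Prkch 24, 9, 17 and 17 counts, in the same order. Reads summed over the gene say nothing of a small edit in it, so this level checks no label of c11 or c15.

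**Figure D1:**
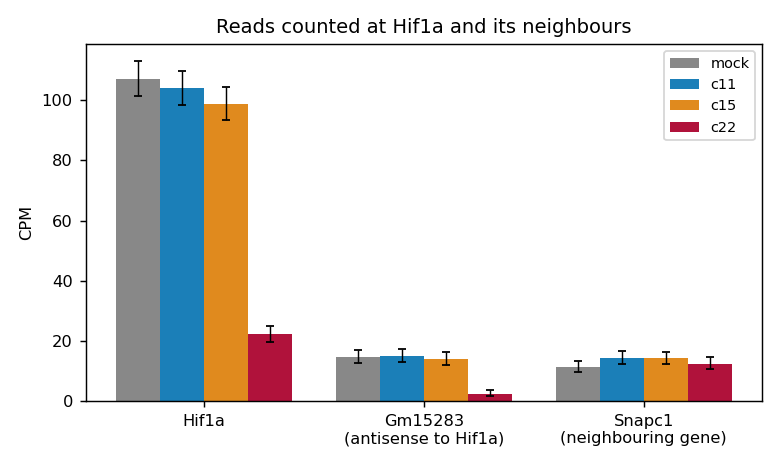
CPM (y axis, from 0) of Hif1a, its antisense gene Gm15283 and the neighbouring gene Snapc1 in the 4 libraries, with exact Poisson 95% intervals as error bars. The c22 bars are low for Hif1a (22.3 CPM) and Gm15283 (2.60 CPM), while Snapc1 lies between 11.5 and 14.6 CPM in all 4 libraries.

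By the same rule, c11 lay 4-fold from both other knockout libraries in 89 genes (0.789%), with 66 higher (0.585%) and 23 lower (0.204%). For c15 the count was 163 genes (1.45%), with 59 higher (0.523%) and 104 lower (0.922%). The number of called genes in c22 was therefore between those of the other lines. Its calls were mostly lower, as were those of c15, while those of c11 were mostly higher. Over all kept genes the median absolute log2 difference was 0.32 between c22 and c11, 0.45 between c22 and c15 and 0.37 between c11 and c15. The 74 lower genes had a median of 1.22 CPM in c22, beside 19.5, 22.4 and 15.1 CPM in c11, c15 and mock. Of them, 32 were under 1 CPM in c22 and 7 had no count there, and 11 were at least 16-fold below both other lines. The 27 higher genes had a median of 24.5 CPM in c22, beside 3.02, 3.11 and 5.65 CPM in c11, c15 and mock, and none reached 16-fold. These levels follow from the way the genes were chosen, except those of mock. The mean used to keep genes includes c22. A higher gene low in c11 and c15, such as Angpt4, P4ha3 or Igfbp7, was thus kept only where c22 was high. The balance of higher and lower calls therefore depends on this filter, and so do counts made within the higher genes.

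**Figure D2:**
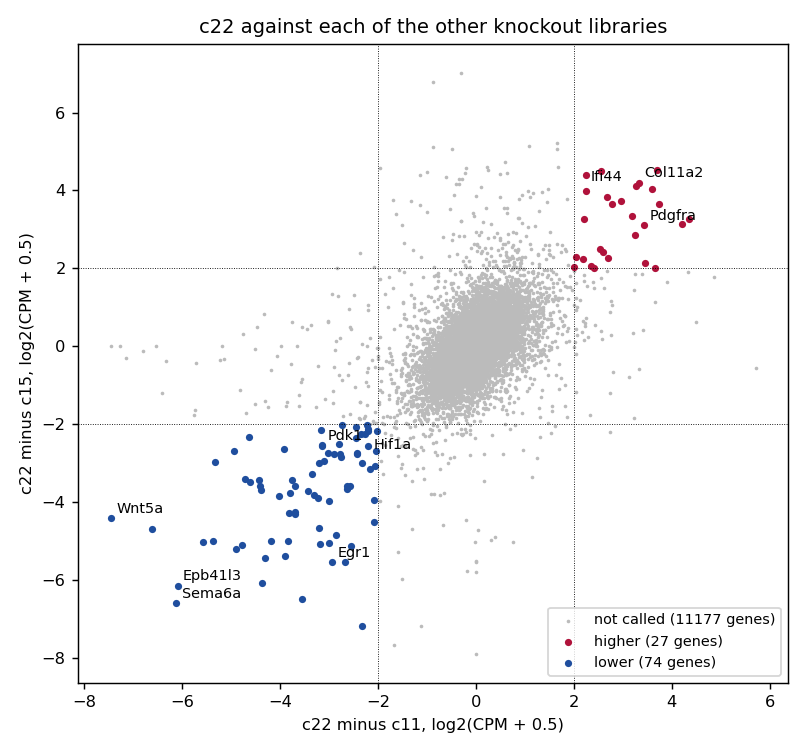
Each point is 1 of 11278 kept genes, at its difference between c22 and c11 (x axis) and between c22 and c15 (y axis) on log2(CPM + 0.5), with dotted lines at 2 and -2. The 27 higher genes (red) reach 3.71 from the nearer line, and the 74 lower genes (blue) reach -6.12.

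The mock library was not used in choosing the genes, but its distance from c22 uses the same c22 values that chose them and is given as a description only. Nearness was taken to the nearer of c11 and c15, in genes where c22 is extreme by choice. The counts of nearness thus lean toward c11 and c15, and the same share over all kept genes is not given. For 68 of the 74 lower genes (91.9%) mock was nearer to c11 or c15 than to c22, and 63 (85.1%) were at least 4-fold lower in c22 than in mock, beside 193 (1.71%) of all kept genes. The median difference between c22 and mock over the lower genes was -3.03 on the log2 scale. Among the higher genes, 21 of 27 (77.8%) had mock nearer to the other lines, 15 (55.6%) were at least 4-fold above mock in c22, beside 143 (1.27%) of all kept genes, and the median difference was 2.07. The exceptions among the lower genes were Aebp1, Itga11, Phf19, Slc7a3, Pkia and Gm9913, for which mock was nearer to c22. Slc7a3, a cationic amino acid transporter, was at 0.32, 52.4, 10.5 and 1.22 CPM in mock, c11, c15 and c22, so c11 and c15 were the high libraries. The exceptions among the higher genes included Septin4, Aldoc, Tpm2 and Car14.

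The genes farthest from both other lines are given below by known role, a grouping made after their values were seen and not tested. Among the lower genes, the first to be described act in cell identity and growth signalling. Lin28b, which blocks maturation of let-7 microRNAs, was at 11.5, 15.2 and 19.2 CPM in mock, c11 and c15, and had 1 count (0.08 CPM) in c22. The ratio of c11 to c22 was 199 (interval 35.2 to 7884). Trim71, itself a known let-7 target that binds RNA, was at 4.20, 11.9, 17.8 and 0.46 CPM in mock, c11, c15 and c22. Irx2, a homeobox transcription factor, was at 17.3, 21.1, 26.3 and 0.23 CPM in that order. In all 3 genes c22 was below the range of the other libraries, mock included. Wnt5a, a secreted ligand of mainly non-canonical Wnt signalling, was at 11.5, 87.0 and 10.2 CPM in mock, c11 and c15 and had no count in c22. Against the 3-count floor per library it was at least 379-fold lower than in c11 and at least 44.3-fold lower than in c15, and c11 stood above mock and c15. Jag2, a Notch ligand, was at 57.4, 39.2, 38.6 and 2.37 CPM in mock, c11, c15 and c22, a 16.5-fold difference from c11 (interval 11.5 to 24.6) and 16.3-fold from c15. Fgf7, a fibroblast growth factor, was at 5.65, 17.7, 59.3 and 0.38 CPM, so the other lines also differed from each other. Tnfrsf19, a receptor of the tumour necrosis factor family, was at 50.6, 22.4, 19.8 and 0.92 CPM. Ptger3, a prostaglandin E2 receptor, had no count in c22 and was at 42.2, 2.01 and 72.2 CPM in mock, c11 and c15, so c11 was also low.

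Other lower genes encode proteins of the membrane, of adhesion and of the matrix. Sema6a, a transmembrane semaphorin of axon guidance, was at 26.4, 34.2 and 48.1 CPM in mock, c11 and c15 and had no count in c22. Against the same 3-count floor Sema6a was at least 149-fold lower than in c11 and at least 210-fold lower than in c15. Epb41l3, which ties membrane proteins to the actin cytoskeleton, was at 80.3, 127, 133 and 1.38 CPM in mock, c11, c15 and c22, a ratio of 92.4 to c11 (interval 58.3 to 156) and 96.7 to c15 (interval 61.0 to 163). These were the widest gaps to the nearer line among all called genes. Ptprf, the receptor tyrosine phosphatase LAR, was at 21.7, 26.5 and 20.4 CPM in mock, c11 and c15 and had 2 counts (0.15 CPM) in c22. In these genes mock lay with c11 and c15. The integrin subunits Itga6 and Itga11, which bind laminin and collagen, were the called members of 7 kept Itga genes (0.656% of all kept genes were called lower). The family had no common direction, with 4 members above both other lines in c22 and 3 below both, and medians of 0.18 from c11 and 0.71 from c15. Itga6 was at 44.3, 75.1, 62.2 and 8.79 CPM, and Itga11 at 4.12, 19.4, 18.6 and 1.45 CPM, in mock, c11, c15 and c22. The matrix glycoprotein gene Tnc was at 122, 217, 218 and 45.1 CPM. In Itga6, Itga11 and Tnc mock was below both c11 and c15 while c22 was lowest. Timp3, an inhibitor of matrix metalloproteinases, was at 14.1, 49.0, 22.3 and 1.53 CPM, and it lies within the span of Syn3, also lower in c22. Aebp1, whose product binds collagen, was at 15.3, 93.0, 86.9 and 6.73 CPM, so mock lay nearer to c22 there. Fn1, the fibronectin gene, was below the threshold at 3578, 3871, 4383 and 1276 CPM, while the called gene Apol7d, on the opposite strand and overlapping it, was at 104, 113, 140 and 20.6 CPM.

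Lower genes of metabolism included a known target of HIF-1. Pdk1, a known HIF-1 target that holds pyruvate out of mitochondrial oxidation by inhibiting pyruvate dehydrogenase, was at 394, 118, 78.4 and 12.9 CPM in mock, c11, c15 and c22. It was thus lower in all 3 knockout libraries than in mock, and lower again in c22, by 9.16-fold from c11 (interval 7.81 to 10.8) and 6.07-fold from c15 (interval 5.15 to 7.18). Car12, a cell-surface carbonic anhydrase that is also a known hypoxia gene, was at 70.9, 40.7, 113 and 3.98 CPM in mock, c11, c15 and c22. Here c15 was above mock. Gatm, of creatine synthesis, was at 30.8, 24.4, 54.0 and 0.76 CPM. Gpd1l, a glycerol-3-phosphate dehydrogenase, was at 33.1, 40.8, 16.3 and 1.07 CPM. The fatty acid carrier Fabp3 was at 13.2, 19.9, 30.8 and 1.07 CPM. In these 3 genes c22 alone was below the range of the other libraries.

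The remaining lower genes farthest from both lines were of mixed function. The tetraspanin gene Tspan6 was at 42.8, 18.3, 32.5 and 0.54 CPM in mock, c11, c15 and c22, and the membrane scaffold gene Flot2 at 23.3, 31.9, 72.2 and 1.76 CPM. The zinc finger gene Zfp512 was at 36.5, 70.4 and 18.5 CPM in the other libraries and had 3 counts in c22. Bend4 was at 8.40, 11.5, 33.4 and 0.31 CPM, and the synaptotagmin gene Syt13 at 8.32, 26.3, 14.8 and 0.76 CPM. Each of these 5 genes had its lowest value in c22. Besides Sema6a, Wnt5a and Ptger3, the genes with no count in c22 were Cecr2, Prdm11 and the predicted genes Gm10451 and Gm13261. Cecr2, a bromodomain protein of chromatin remodelling, was at 21.6, 6.51 and 9.32 CPM in mock, c11 and c15. Prdm11 was at 1.78, 9.91 and 5.99 CPM in mock, c11 and c15, Gm10451 at 9.53, 23.2 and 15.7 CPM, and Gm13261 at 3.55, 3.10 and 13.8 CPM.

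Among the genes higher in c22, some act in the matrix and in contraction. Col11a2, a chain of collagen XI, was at 14.2, 6.12, 3.11 and 65.9 CPM in mock, c11, c15 and c22, which is 10.8-fold above c11 (interval 8.55 to 13.7) and 21.2-fold above c15 (interval 15.5 to 29.8). P4ha3, a subunit of the enzyme that hydroxylates proline in collagen, was at 0.81, 1.32, 1.44 and 23.7 CPM. Both genes were higher in c22 than in every other library. Acta2, smooth muscle actin, was at 9.45, 8.91, 22.9 and 103 CPM in mock, c11, c15 and c22. Mylk, a kinase of myosin light chain, was at 27.6, 22.2, 10.4 and 104 CPM. Nrap, an actin-binding protein of striated muscle, was at 2.02, 3.02, 0.30 and 16.4 CPM. All 3 were highest in c22. Tpm2, a tropomyosin, was at 15.7, 1.16, 1.67 and 15.3 CPM, so mock and c22 lay together. Markers of skeletal muscle varied across the libraries: of 20 in the list 0, 7, 6 and 1 had no count in mock, c11, c15 and c22, and their summed level was 171, 11.2, 5.31 and 39.3 CPM. Myh4, a myosin heavy chain of fast fibres, was at 31.3 CPM in mock, 0 in c11 and c15 and 5.05 CPM in c22. The part of host muscle in the contractile genes was not tested.

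The other higher genes included receptors, secreted factors and enzymes. Angpt4, an angiopoietin that binds the TIE2 receptor, was at 0.73, 0.77, 0.23 and 16.1 CPM in mock, c11, c15 and c22, the widest gap in this direction, with a ratio of 20.8 to c11 (interval 11.1 to 44.1). Pdgfra, a receptor for platelet-derived growth factor, was at 15.2, 5.42, 6.97 and 63.8 CPM, or 11.8-fold above c11 and 9.14-fold above c15. In both, c22 was above all other libraries. The carbonyl reductase gene Cbr2 was at 21, 31.6, 13.9 and 206 CPM. Igfbp7, a secreted binding protein, was at 1.21, 1.78, 1.82 and 12.7 CPM, whereas its relative Igfbp5 was among the lower genes. In Cbr2 and Igfbp7 c22 exceeded mock as well as both lines. Cx3cl1, the chemokine fractalkine, was at 5.41, 4.42 and 4.24 CPM in mock, c11 and c15 and at 21.9 CPM in c22. Acacb, the mitochondrial form of acetyl-CoA carboxylase, was at 4.12, 2.17, 0.99 and 25.2 CPM. The glycolytic gene Aldoc was at 29.7, 5.27, 5.99 and 34.5 CPM, and the membrane carbonic anhydrase gene Car14 at 41.4, 8.13, 4.55 and 66.5 CPM. In this pair mock and c22 were the high libraries. Car14 (chr3:95897768-95904691) lies 5.763 kb from BC028528, also higher in c22, at 5.09, 1.86, 2.65 and 14.8 CPM. The kinesin gene Kif13a was at 4.76, 5.11, 2.58 and 38.3 CPM and the glycosyltransferase-like gene Glt8d2 at 2.99, 2.25, 1.97 and 24.5 CPM. Gpr176, an orphan receptor, was at 0.89, 2.40, 0.38 and 13.4 CPM.

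**Figure D3:**
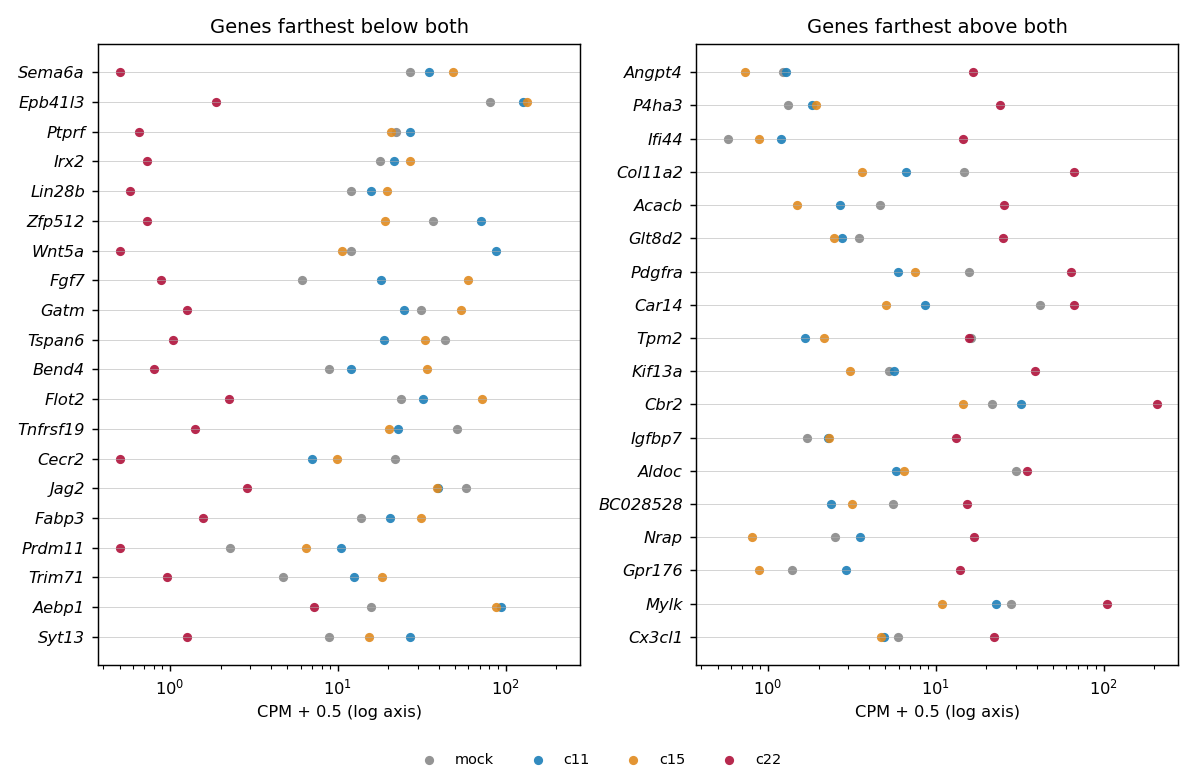
CPM + 0.5 on a log axis (x) in mock, c11, c15 and c22 for 20 genes farthest below (left) and 18 of those farthest above (right) both other knockout lines, ordered by the gap to the nearer line. On the left the c22 points lie at the far left of every row, and on the right mock lies beside c22 for Tpm2, Aldoc and Car14.

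Genes near the threshold differed little from those just beyond it. In the order c11, c15 and c22, those just inside were Prob1 at 5.96, 5.84 and 25.4 CPM and Septin4 at 1.32, 5.15 and 22.3 CPM. Those just outside were Acss2 at 14.9, 15.6 and 60.8 CPM and Cryab at 2.56, 4.70 and 19.2 CPM. On the lower side, Gm41664 at 10.8, 12.1 and 2.29 CPM and Igfbp5 at 116, 101 and 24.5 CPM were just inside. Efna2 at 7.51, 6.67 and 1.30 CPM and Dusp9 at 41.3, 34.8 and 8.41 CPM were just outside. Among 2810 genes left out by the filter with a mean of 1 to 5 CPM, 33 (1.17%) were at least 4-fold above both other lines in c22 and 27 (0.961%) at least 4-fold below both.

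Of 160 gene families with a kept member, none had 3 or more called genes in 1 direction. The gene lists held 13 called members among 410 kept genes, each gene counted once (3.17%, beside 0.896% of all kept genes). The lists were chosen with results of these data known, so this share supports nothing. Each list is set beside all kept genes, for which the median log2 difference was -0.05 from c11 and -0.02 from c15, and of which 3624 (32.1%) lay above both other lines in c22 and 4349 (38.6%) below both. With scaling by the trimmed mean of M values (TMM, in edgeR), these shares were 36.4% and 34.2%.

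Genes of the interferon response, which cells switch on through factors such as STAT2 and IRF9 when an interferon binds its receptor, were higher in c22 as a list while only 1 was called. Of 54 genes 34 were kept, 27 were above both other lines in c22 and none below both. The filter counts c22 itself, so a member low in c11 and c15 was kept only where c22 was high, Ifi44 and Gbp3 among them. With the filter on the mean of c11 and c15 instead, added after the values were seen, 19 of 26 kept members were above both (30.6% of all genes so kept), with medians of 0.97 and 0.57. With at least 5 CPM in mock as the filter, 17 of 24 were above both (31.6% of all genes so kept), with medians of 0.96 and 0.40, and none was below both under either. Over the 34, the median difference was 1.01 from c11, 0.67 from c15 and 1.11 from mock, and 8 (23.5%) were at least 2-fold above both, beside 1.81% of all kept genes. The called member was Ifi44, an interferon-induced gene of uncertain biochemical role, with 1, 9, 5 and 183 counts in mock, c11, c15 and c22, or 0.08, 0.70, 0.38 and 14.0 CPM. It was 20.1-fold above c11 (interval 10.3 to 44.6) and 36.9-fold above c15 (interval 15.5 to 115). The transcription factor genes Stat2 and Irf9 differed less. Stat2 was at 10.8, 16.6, 19.8 and 33.4 CPM in mock, c11, c15 and c22, and Irf9 at 13.6, 15.3, 16 and 33.9 CPM. Both were highest in c22. Among effectors, Rtp4 was at 5.57, 5.42, 6.75 and 19 CPM and Irgm1, a GTPase of pathogen defence, at 9.85, 7.98, 7.66 and 20.6 CPM. Ddx58, which encodes the RNA sensor RIG-I, was at 4.04, 15.1, 13.6 and 25.2 CPM, with mock the lowest. Isg15, a ubiquitin-like modifier, did not separate c22 from c15, at 5.01, 4.80, 14.4 and 14.4 CPM. The list did not order c11 and c15 alike throughout: c11 was above c15 for Gbp3 and below it for Irf7, which was at 15.2, 16.3, 33.9 and 43.0 CPM.

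Promoter windows of 4 list members are shown because the sequence through which STAT2 and IRF9 are known to act can be read in them. They come from RefSeq on GRCm38.p6, in the direction of transcription, and end before the RefSeq start, outside the coding region. Capitals mark the core of the interferon-stimulated response element, searched as GAAA, any 2 bases and GAAA on either strand (TTTC, any 2 bases and TTTC on the other), with overlapping matches joined. The windows are Rsad2 at chr12:26456523-26456612 (minus strand), Gbp3 at chr3:142559959-142560043 (plus), Ifit1 at chr19:34640745-34640853 (plus) and Ifit3 at chr19:34583333-34583456 (plus).
Rsad2: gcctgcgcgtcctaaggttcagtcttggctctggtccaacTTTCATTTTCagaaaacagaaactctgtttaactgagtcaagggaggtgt
Gbp3: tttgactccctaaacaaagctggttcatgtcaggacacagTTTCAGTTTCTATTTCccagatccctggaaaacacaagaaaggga
Ifit1: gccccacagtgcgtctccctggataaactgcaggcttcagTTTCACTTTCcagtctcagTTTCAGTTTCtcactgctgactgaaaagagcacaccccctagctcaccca
Ifit3: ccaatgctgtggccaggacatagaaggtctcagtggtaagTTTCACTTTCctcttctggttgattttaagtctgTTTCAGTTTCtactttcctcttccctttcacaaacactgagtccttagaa

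Rsad2, an antiviral enzyme also called viperin, was at 1.29, 1.55, 5.91 and 9.17 CPM in mock, c11, c15 and c22. Gbp3, a guanylate-binding protein, was at 2.66, 4.72, 2.96 and 7.42 CPM. The antiviral RNA-binding genes Ifit1 and Ifit3 were at 2.42, 1.94, 6.29 and 8.33 CPM and at 1.62, 2.48, 6.59 and 9.86 CPM. All 4 were highest in c22, with c15 next for 3 of them. Each of the 4 had a mean under 5 CPM over c11 and c15. They were thus kept only because c22 was high, and their place above both lines follows in part from the filter. Windows from 250 bases before to 50 bases after the start were matched for 8556 kept genes, and 2.81% of them held this core. In the interferon list 15 of 25 matched genes (60.0%) held it. Members with it were above both other lines in 11 of 15 cases, with medians of 0.93 from c11 and 0.55 from c15, and members without it in 9 of 10, with medians of 1.20 and 0.86. Both groups were kept by the filter that counts c22, so these counts and medians lean upward. The split was not repeated with the filter on c11 and c15. Among called genes it was found in 1 of 23 matched higher genes (Mylk) and 0 of 48 lower genes, and Ifi44 has no such letters in its window. ACGTG, the core letters of the hypoxia response element, occurred in 27.2% of all windows, in 8 of 23 higher genes (34.8%) and in 13 of 48 lower genes (27.1%), Hif1a included. TGANTCA, an AP-1 site, was in 4.18% of all windows, in 2 of 23 higher and in 0 of 48 lower genes. CACGTG, an E-box that contains ACGTG, was in 10.9% of all windows, in 1 of 23 higher and in 6 of 48 lower genes (12.5%).

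**Figure D4:**
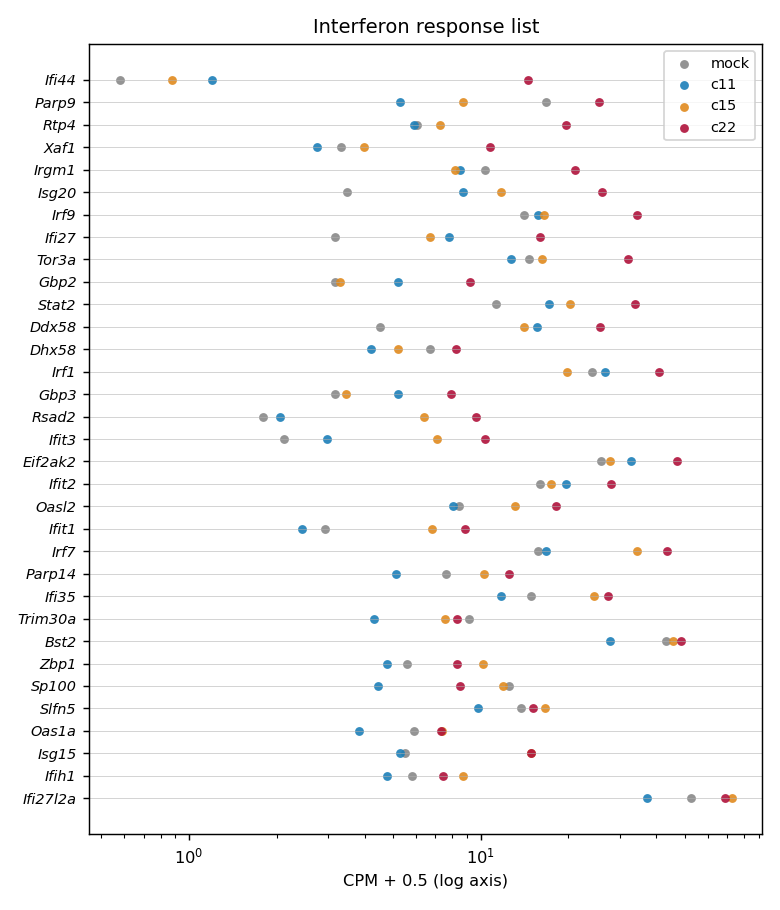
CPM + 0.5 on a log axis (x) of 33 kept genes of the interferon response list in mock, c11, c15 and c22, ordered by the gap between c22 and the nearer of c11 and c15. The c22 point lies right of c11 and c15 in 26 rows, most of all for Ifi44, and at or left of c15 in the 7 rows at the bottom.

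Class I antigen presentation, the display of peptides on MHC molecules that interferon also raises, had 17 kept genes and no call. In c22, 11 were above both other lines and 1 below both, and the medians were 0.45 from c11 and 0.78 from c15. By summed level c11 was instead the highest, with 2419, 4065, 3204 and 3829 CPM in mock, c11, c15 and c22. With the filter on c11 and c15, 9 of 15 were above both, with medians of 0.34 and 0.52. Tap1, of the peptide transporter, was at 3.88, 3.49, 4.93 and 12.4 CPM in mock, c11, c15 and c22. Tapbp, which loads peptide, was at 35.1, 62.4, 31.6 and 139 CPM, and H2-M3 at 10.1, 10.8, 7.12 and 29.1 CPM. These 3 genes lie on chromosome 17 and were at least 2-fold above both lines. Tap1 had a mean under 5 CPM over c11 and c15 and was kept only because c22 was high. The 8 kept members on that chromosome had medians of 1.29 and 0.70, and the 9 elsewhere 0.15 and 0.78. The classical heavy chain gene H2-K1 was lower in c22 than in c15, at 80.3, 61.0, 87.8 and 77.5 CPM. Without its chromosome 17 member the interferon list had medians of 1.04 from c11 and 0.66 from c15. These splits by chromosome used the filter that counts c22 and were not repeated with the filter on c11 and c15.

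By summed level, macrophage markers placed mock differently from the interferon list, while c11, c15 and c22 rose in the same order in both. The interferon list summed to 398, 373, 534 and 806 CPM in mock, c11, c15 and c22. Of 18 macrophage and monocyte markers 17 were kept, with a summed level of 1019, 333, 476 and 595 CPM in mock, c11, c15 and c22. In c22, 11 were above both other lines and none below both, with medians of 0.82 from c11 and 0.26 from c15, and no marker of the list was at 0 in any library. Adgre1, which encodes F4/80, was at 19.2, 7.44, 10.4 and 12.9 CPM. Mock was thus the highest library for this list, while it lay 1.11 below c22 at the median of the interferon list. The part of host macrophages in the interferon genes was not tested. Markers of T, B and NK cells summed to 0.40, 0.70, 0.53 and 1.99 CPM, with 12, 9, 10 and 7 of 15 at 0.

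Immediate early and heat shock genes, which respond within minutes to growth signals or stress, were lower in c22. Of 16 kept genes 13 were below both other lines and none above both, with medians of -0.53 from c11, -0.93 from c15 and -1.28 from mock. Egr1, a zinc finger transcription factor of this kind, was the called member, at 205, 22.2, 137 and 2.45 CPM in mock, c11, c15 and c22. The AP-1 subunit genes Fosl2 and Fos were at 71.3, 150, 78.5 and 28.9 CPM and at 48.3, 7.75, 43.5 and 5.05 CPM. For Egr1 and Fos c11 was also well below mock and c15. Genes of MYC and ribosome biogenesis had no call, yet 19 of 21 kept genes (90.5%) were below both other lines and none above both. Their medians were -0.17 from c11 and -0.92 from c15, so c22 lay near c11. With TMM or DESeq2 scaling, which set the median of all kept genes to 0.02 and 0.01 from c11, 14 of the 21 were below both and none above both. Rrp12, of ribosome assembly, was at 47.2, 40.3, 83.6 and 14.1 CPM, and Myc at 3.47, 14.9, 24.1 and 3.75 CPM, with mock and c22 alike. Whether the Myc count includes the overexpressed c-MYC was not tested, so it is not read as the MYC level of the cells.

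In the Wnt pathway list 6 of 10 kept genes were below both other lines and none above both, with medians of -0.97 from c11 and -0.79 from c15. Wnt5a was the call. Wnt10b, a ligand of the beta-catenin branch, was at 51.2, 45.2, 72.2 and 21.6 CPM in mock, c11, c15 and c22. Apcdd1, an inhibitor of Wnt signalling, was at 11.8, 28.9, 3.49 and 0.99 CPM. Sfrp2, a secreted antagonist, was at 9.45, 7.59, 81.2 and 11.5 CPM, where c15 rather than c22 stood apart.

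By list medians, c22 lay farther from mock than from c11 or c15 for hypoxia genes outside glycolysis, glycolysis and the unfolded protein and integrated stress response. HIF pathway components showed little such gap, with medians of -0.20 from c11, 0.03 from c15 and -0.22 from mock over 6 kept genes. Hypoxia genes outside glycolysis had medians of 0.13 from c11, 0.16 from c15 and -1.42 from mock over 32 kept genes, with Pdk1 and Car12 called lower. Ero1l, an oxidase of protein folding, was next, at 306, 199, 204 and 84.4 CPM. Apln, a secreted peptide gene, was also highest in mock, at 58.9, 3.56, 5.31 and 13.3 CPM, but there c22 was above c11 and c15. Glycolysis, with 21 kept genes, had medians of 0.33, -0.43 and -1.53, and Aldoc was its call. Genes of the unfolded protein and integrated stress response had medians of -0.16, 0.04 and 1.47 over 26 kept genes and no call. Transcripts of the mitochondrial genome were above both other lines for 10 of 10 kept genes, with medians of 0.41 and 0.50 and no call. mt-Nd4, of respiratory complex I, was at 1086, 806, 871 and 1335 CPM. Of 19 genes of cholesterol synthesis 12 were above both lines, with medians of 0.52 and 0.14, and Mvd, of the mevalonate pathway, was at 36.3, 45.3, 49.7 and 102 CPM.

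Markers of the osteoblast lineage, from which osteosarcoma arises, were present in all libraries. Runx2, its master transcription factor, was at 245, 133, 139 and 116 CPM in mock, c11, c15 and c22, and Sp7, which acts after it, at 177, 65.6, 144 and 76.2 CPM. Of 24 markers 15 were kept and none was called. In c22, 5 were above both other lines and 3 below both, with medians of 0.79 from c11 and -0.02 from c15, so the list had no common direction. Within it the collagen I genes were highest in c22: Col1a1 was at 862, 1913, 1093 and 4700 CPM and Col1a2 at 2292, 1082, 1627 and 3398 CPM. Sparc, a collagen-binding protein of bone, was at 378, 865, 297 and 1429 CPM. Collagens differed in direction, since Col4a1, of basement membrane, was at 11.9, 113, 6.67 and 1.61 CPM. The 18 kept collagen chains had medians of -0.30 from c11 and 1.17 from c15.

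The host fibroblast and mural cell list held Pdgfra and Acta2 among 11 kept genes, of which 3 were above both other lines. Its summed level was 331, 378, 311 and 481 CPM in mock, c11, c15 and c22, with medians of 0.86 from c11 and -0.65 from c15. Dcn, which encodes the matrix proteoglycan decorin, was at 45.1, 6.35, 30.8 and 11.9 CPM, with mock and c15 high. Pdgfrb was at 47.5, 213, 47.2 and 196 CPM, with c11 and c22 high. Endothelial markers summed to 35.5, 26.4, 25.3 and 13.8 CPM, and erythroid markers to 116, 1.63, 4.24 and 41.1 CPM. The part of host cells in the higher genes was not tested.

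Chromosome 17 stood apart in c22 by many small differences. Its 564 kept genes had a median log2 difference of 0.55 from c11, 0.55 from c15 and 0.51 from mock, whereas c11 and c15 lay at -0.04 and 0.00 from mock. In c22, 76.2% of them were above both other knockout lines and 71.5% above all 3 other libraries. The middle 50% of its genes had mean differences between 0.25 and 0.85. Windows of 10 Mb with at least 10 kept genes were above both lines in 9 of 9 cases on this chromosome, from 0.37 to 0.68 against c11 and from 0.22 to 0.68 against c15. Over the genome 48 of 252 windows were above both lines and 141 below both. Only 1 gene of chromosome 17 was called higher, Col11a2 (chr17:34039437-34066685), and 1 lower, Epb41l3 (chr17:69075683-69289989). Each is 0.177% of its kept genes, beside 0.239% called higher and 0.656% called lower over the genome. No other chromosome with at least 20 kept genes had as large a median on the same side of both lines: the next in c22 was chromosome 16, at 0.18 from c11 and 0.69 from c15. In the other lines the median farthest from both others was -0.48 for chromosome 16 in c15 and 0.31 for chromosome 2 in c11. DNA copy number was not measured in these libraries.

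**Figure D5:**
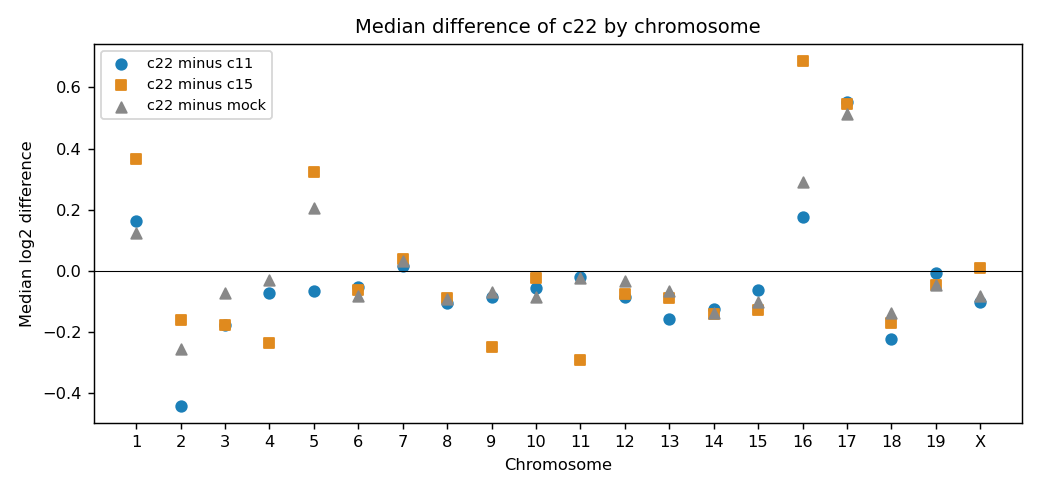
Median log2 difference (y axis) of kept genes on each chromosome (x axis) between c22 and c11 (circles), c15 (squares) and mock (triangles). The 3 symbols of chromosome 17 lie together between 0.51 and 0.55, while on chromosomes 2 and 16 they are spread.

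Chromosome 2 went the other way, less evenly. Its 898 kept genes had medians of -0.44 from c11, -0.16 from c15 and -0.25 from mock, and c11 itself was 0.19 above mock. By the median from the nearer line, chromosomes 18 (-0.22 from c11 and -0.17 from c15) and 3 (-0.17 and -0.18) lay farther below than chromosome 2. All 19 windows of chromosome 2 were below both lines, with medians of -0.37 to -0.04 from c15. Such windows were common in c22, at 141 of 252 over the genome, 12 of 13 on chromosome 9 and 11 of 13 on chromosome 8. The share of its kept genes called lower was 1.34%, beside 0.656% over the genome, 1.74% on chromosome X and 1.72% on chromosome 18. Of the 74 lower genes, 12 lie on chromosome 2. Among these, Itga6 and Pdk1 are neighbours 14.808 kb apart (chr2:71745616-71858416 and chr2:71873224-71903858, both plus strand), and Syt13 and Prdm11 lie 15.96 kb apart. Pairs of called genes within 500 kb and in the same direction, a measure chosen after the values were seen, numbered 6. The others were Car14 with BC028528, Timp3 with Syn3, Hif1a with Gm15283, and Trim71 with Gpd1l on chromosome 9. The last are 334.972 kb apart with 5 kept genes between them whose gaps to the nearer line were 0.01 to -0.29, so the stretch was not low as a whole.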

How the data were processed

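The authors deposited a table of raw read counts by Ensembl gene ID. The submitters' processing notes name the build GRCm38 and the tools HISAT2 2.1.0, featureCounts 1.6.3, Trimmomatic 0.38, SAMtools 1.9 and FastQC 0.11.7. Settings, strand included, are not given in the sources used here, so counts of genes that overlap, on either strand, or that have near-identical copies are uncertain. The kit was directional, per the labels' protocols. No column of another sample was present.

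Counts were divided by column totals to give CPM (Python 3.11.15, pandas 2.3.3). Genes with a mean of at least 5 CPM over the 3 knockout columns were kept (11278 genes, 99.04% of counts), and 0.5 was added before log2. Of these, 11274 had an ID in GENCODE M21, 11163 with the same coordinates. With 1 library per line there is no replicate error, and differences were described as values. Poisson and binomial 95% intervals (SciPy 1.17.1) cover counting error only, since reads are not independent molecules. Scaling factors of edgeR 4.0.16 and DESeq2 1.42.0 (R 4.3.3) served as alternatives, and neither tool was used for a test. The calling step was run on simulated counts with planted 8-fold changes and counting error only. They held no other spread between libraries, so the run gives no rate of wrong calls in these data.

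The called genes, the 33 gene lists and the motifs were chosen with earlier results of these data known. Named genes were Hif1a, the 20 called genes farthest from the nearer line in each direction without predicted genes and pseudogenes, up to 4 called members of each list, 2 genes on either side of the threshold in each direction and called genes at 0 counts. List members with no call, families, neighbouring pairs, exceptions of mock and other called genes (Tnc, Itga6, Itga11, Timp3, Apol7d and Slc7a3) were chosen for mention after seeing their values. Values of some genes are not reported here. Promoters were matched by symbol.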

Additional observations from a re-analysis of the deposited data

How the results depend on the processing

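The 27 higher and 74 lower genes of c22 depend on the thresholds. Higher genes numbered 60 at a mean of at least 1 CPM and 68 with no filter, where more genes are tested. A mean of at least 20 CPM left 8 higher and 30 lower. Adding 2 to CPM gave 17 and 48, and adding 5 gave 11 and 22, since low genes shrink. A 2-fold threshold gave 204 and 276, and an 8-fold one 9 and 32. Leaving out c11 or c15, which asks for a gap to 1 line only, gave 79 to 203 higher genes, 165 to 178 lower genes and 35 to 39 called list members in place of 13. Mock was nearer to c11 or c15 for 12 higher and 45 lower genes with 2 added, where fewer genes were called. For c11, higher genes numbered 126 at 1 CPM, 137 with no filter, 25 at 20 CPM, 38 with 5 added, 185 at 2-fold and 31 at 8-fold. Its lower genes numbered 7 at 20 CPM, 7 with 2 added, 2 with 5 added, 142 at 2-fold and 6 at 8-fold. For c15, higher genes numbered 127, 135, 19, 26, 353 and 22 under the same 6 settings. Its lower genes numbered 54 at 20 CPM, 67 with 2 added, 35 with 5 added, 448 at 2-fold and 39 at 8-fold. All 98 calls under TMM scaling and all 99 under DESeq2 size factors were among the 101. A filter on the mean of all 4 columns, added after seeing the data, gave 101 calls, 94 of them shared. The difference of c22 from c11 and c15 was averaged per gene, and its median over chromosome 17 stayed at 0.54 to 0.61 under the alternatives run. With c11 or c15 left out, this is the median difference from the remaining line alone. No paired analysis was possible because the columns carry no replicate numbers and each line has 1 library. Depth limits genes under about 1 CPM in c22, where few counts set the fold.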

Other observations

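Genes below the expression filter, with a mean of 1 to 5 CPM, held further differences of at least 4-fold from both other lines. Slc9a2, a sodium-proton exchanger gene, had 5, 2, 0 and 147 counts in mock, c11, c15 and c22. Cdh10, a cadherin gene, had 0, 1, 0 and 66 counts in that order, and Hoxc13 had 0, 0, 4 and 61. In these 3 genes c22 was the only library with more than 5 counts. Adamts9, a matrix protease gene, was instead high in both mock and c22, with 106, 0, 1 and 113 counts. Lmod1, which encodes the smooth muscle protein leiomodin, had 4, 10, 2 and 99 counts. The skeletal muscle genes Myh4 and Atp2a1 also met the rule, with 388, 0, 0 and 66 counts and 323, 3, 1 and 59 counts, and both were highest in mock.

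On the lower side, Eda, which encodes the signalling protein ectodysplasin, had 62, 91, 100 and 0 counts in mock, c11, c15 and c22. Nrn1, neuritin, had 32, 68, 70 and 0 counts, and Mmp16, a membrane-bound matrix metalloproteinase, 283, 59, 96 and 0. Has2, a hyaluronan synthase, had 27, 37, 40 and 2 counts. Axin2, a known feedback target of Wnt and beta-catenin, had 37, 58, 25 and 1 counts. In each of these 5 genes c22 was the lowest library. These genes were named after their values were seen.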
